A study of Bombyx mori with 64 samples.

Results

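The larval midgut of the silkworm, Bombyx mori, taken at the fifth instar on day 3, was represented by 4 of the 64 miRNA arrays of the series, chosen by their labels. They hold 2 RNA specimens, 1 female and 1 male, each hybridized to a pair of slides called a and b. They were set against the other 32 arrays of the same larval day, which hold 16 specimens of 9 tissues: head, body wall, malpighian tubule, anterior silk gland, posterior silk gland, fat body, hemocyte, ovary and testis. All larvae, in every group, came from the bivoltine DaZao strain, fed on mulberry leaves, with no treatment, and each tissue was taken from both sexes except the gonads, which have 1 specimen each. The sources do not say how many animals a specimen pools, so the p-values measure the spread between these specimens only. The midgut specimens carry the whole organ and not 1 cell type.

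MicroRNAs are short RNAs that pair with messenger RNAs and lower their translation or stability. The larval midgut is the main organ of digestion and uptake, an epithelium of columnar, goblet and stem cells wrapped in visceral muscle, and its larval cells are lost and replaced in metamorphosis. The array carried 106 miRNA probes named SW with a serial number. The files do not pair these names with miRNAs or with sequences, so probes are reported by their names, no role can be given to them and the labelled tissues could not be checked against defining markers. The design repeats probes for some miRNAs and includes probes for miRNAs of other species, and a count of probes is therefore not a count of miRNAs. One probe can be tied to a name. The legend of the study gives the strongest larval signal, in the female head, to miR-1, a muscle miRNA in Drosophila and vertebrates, and that signal belongs to SW-7 in the files.

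Signals are fluorescence intensities after background subtraction and scaling, in array units, with 1000 as the expression threshold of the study. No spot of the midgut arrays was saturated, 28 to 30 probes per midgut array reached 1000, and the median signal of the midgut arrays lay between 181.8 and 355.2, against 18 to 72 probes and medians of 12.8 to 1445.7 on the other larval arrays. One of the blank control probes read 11.0 to 105.7 on the midgut arrays, against up to 2711.7 on the other arrays and at most 254.0 once body wall and malpighian tubule were set aside. Every larval tissue other than the gonads carries its own date code in the file names, and the midgut code is shared by no other tissue, so tissue and date cannot be told apart in larvae.

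Of the 106 probes, 29 reached 1000 in the midgut, and all 29 did so in both sexes. SW-7 was the only probe with a midgut mean of 10000 or more. SW-68 and SW-9 lay between 5000 and 10000, and the other 26 between 1000 and 5000. The midgut signals of SW-7 were 13914.3 and 11457.3 in the female and 8475.3 and 9744.3 in the male, on slides a and b. SW-68 gave 8996.3 and 8349.3 in the female and 6704.7 and 8692.7 in the male. SW-9 gave 5800.7 and 5116.7 in the female and 4876.3 and 5448.3 in the male. For SW-68 and SW-9 the slides of the sexes overlapped, whereas both female slides of SW-7 lay above both male slides. The next probes by midgut mean were SW-27 at 3927.2, SW-72 at 3729.8, SW-25 at 3306.2, SW-58 at 3297.4, SW-61 at 2518.3, SW-59 at 2409.0 and SW-21 at 2404.7. A signal also depends on how well a probe binds its target, so these values do not rank the miRNAs by abundance.

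None of the 29 probes reached 1000 in the midgut alone. The narrowest, SW-49, reached it in the midgut, the head and the body wall, and 12 of the 29 reached it in all 10 tissues. For none of the 29 was the midgut the tissue with the highest mean signal, and for 5 of them, SW-25, SW-58, SW-45, SW-57 and SW-38, it was the tissue with the lowest. The shared part of the expressed set was widest with the head and the malpighian tubule: 28 probes each, or 96.6% of the midgut set and 62.2% of the 45 expressed in the head or 56.0% of the 50 expressed in the tubule. It was narrowest with the hemocytes, 16 probes, or 55.2% of the midgut set and 80.0% of the 20 expressed there. With fat body, ovary, testis and hemocyte 11 to 13 midgut probes were not shared, and 8 of them recurred in all: SW-1, SW-8, SW-28, SW-33, SW-49, SW-54, SW-75 and SW-106 were at 1000 or more in both midgut specimens and under it in every specimen of hemocyte, fat body, ovary and testis.

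To ask which probes set the midgut apart, its 2 specimens were compared with the mean of the other 9 tissues over the 55 probes that reached 1000 in at least 2 larval specimens. Signals under 100 were set to 100 before log2, which raises the mean of the other tissues where some of them lie under 100. With limma and an adjusted p under 0.05, 9 probes (16.4%) were higher in the midgut and 21 (38.2%) were lower. With a floor of 10 these were 13 and 17. In bulk tissue, fewer cells of a type and less RNA per cell cannot be told apart. The median difference over all 55 probes was -0.41 on the log2 scale, so most of the probes in this filtered set lay somewhat lower in the midgut than in the mean of the other tissues.

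**Figure D1:**
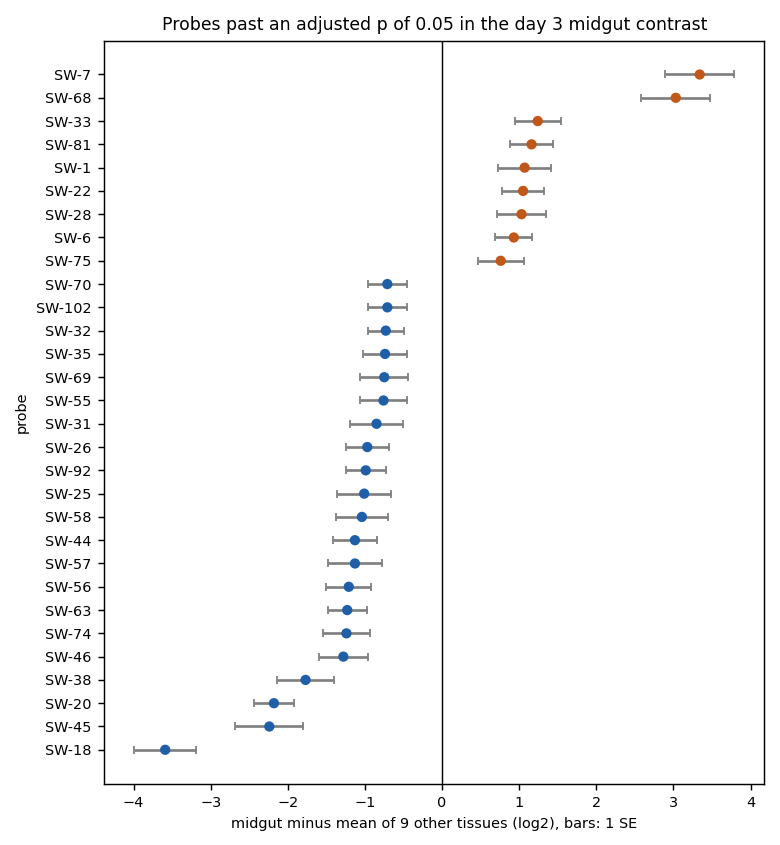
Midgut minus the mean of the 9 other day 3 tissues (log2, horizontal axis) for each probe past an adjusted p of 0.05 (vertical axis), with bars of 1 SE from limma. The 9 higher probes reach 3.34 for SW-7 and the 21 lower ones reach -3.59 for SW-18.

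The 2 largest rises belonged to SW-7 and SW-68. SW-7 averaged 12685.8 in the female and 9109.8 in the male midgut. In the other 16 specimens it had a lowest signal of 7.3, in the female hemocytes, a median of 578.8 and a highest of 78943.5, in the female head. Both midgut specimens were above 13 of the 16, and only the head pair and the male body wall, at 24640.2, lay higher. The mean difference was 3.34 ± 0.45 (log2, SE; adjusted p = 1.44e-05), or 10.16-fold. SW-68 averaged 8672.8 in the female and 7698.7 in the male midgut, against a lowest of 11.3, a median of 736.7 and a highest of 30711.5, in the male body wall. It too was exceeded only by the head pair, at 18687.5 and 19836.7, and the male body wall, and its difference was 3.03 ± 0.45 (adjusted p = 3.54e-05). The tissues stood in much the same order for SW-68 as for SW-7, with the silk glands and the hemocytes at the bottom of both.

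The other 7 higher probes differed by 0.76 to 1.24 on the log2 scale, from SW-75 to SW-33, and none of them was above every other tissue. SW-81 had midgut signals of 1637.3, 1362.3, 1032.7 and 1138.0 (female slides a and b, then male), against a median of 632.7 and a range of 10.3 to 2563.2 in the other specimens. It differed from the rest of this group in the head, where it gave only 197.3 and 108.7, and its difference was 1.16 ± 0.28 (adjusted p = 0.00339). SW-1 and SW-75, by contrast, were strongest in the head. SW-1 averaged 1510.7 and 1594.3 in the midgut but 11528.7 and 12839.8 in the head, and 269.2 to 552.5 in the silk glands (difference 1.07 ± 0.34, adjusted p = 0.0145). SW-75 averaged 1639.2 and 1209.2 in the midgut and 8587.3 and 7609.3 in the head (difference 0.76 ± 0.30, adjusted p = 0.0423).

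SW-28 was the most even of the 9. Its midgut signals of 1746.2 and 1562.0 were above 13 of the 16 other specimens, whose median was 1010.4, and SW-28 differed by 1.03 ± 0.32 (adjusted p = 0.0135). SW-22 and SW-6 passed the test with midgut means under 1000. SW-22 averaged 911.2 in the female and 918.2 in the male midgut, above 13 of the 16 other specimens, with a median of 394.6 and a highest value of 2961.8 in the female tubule (difference 1.05 ± 0.27, adjusted p = 0.00413). SW-6 averaged 745.3 and 488.2 in the midgut. It was at 3742.0 to 4227.5 in head and body wall and at 10.3 to 60.7 in fat body, gonads and hemocytes (difference 0.93 ± 0.24, adjusted p = 0.0045), so its groups overlapped widely. With a floor of 1000, above both midgut means, SW-6 passed in the opposite direction (-0.44 ± 0.06, adjusted p = 0.00165).

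**Figure D2:**
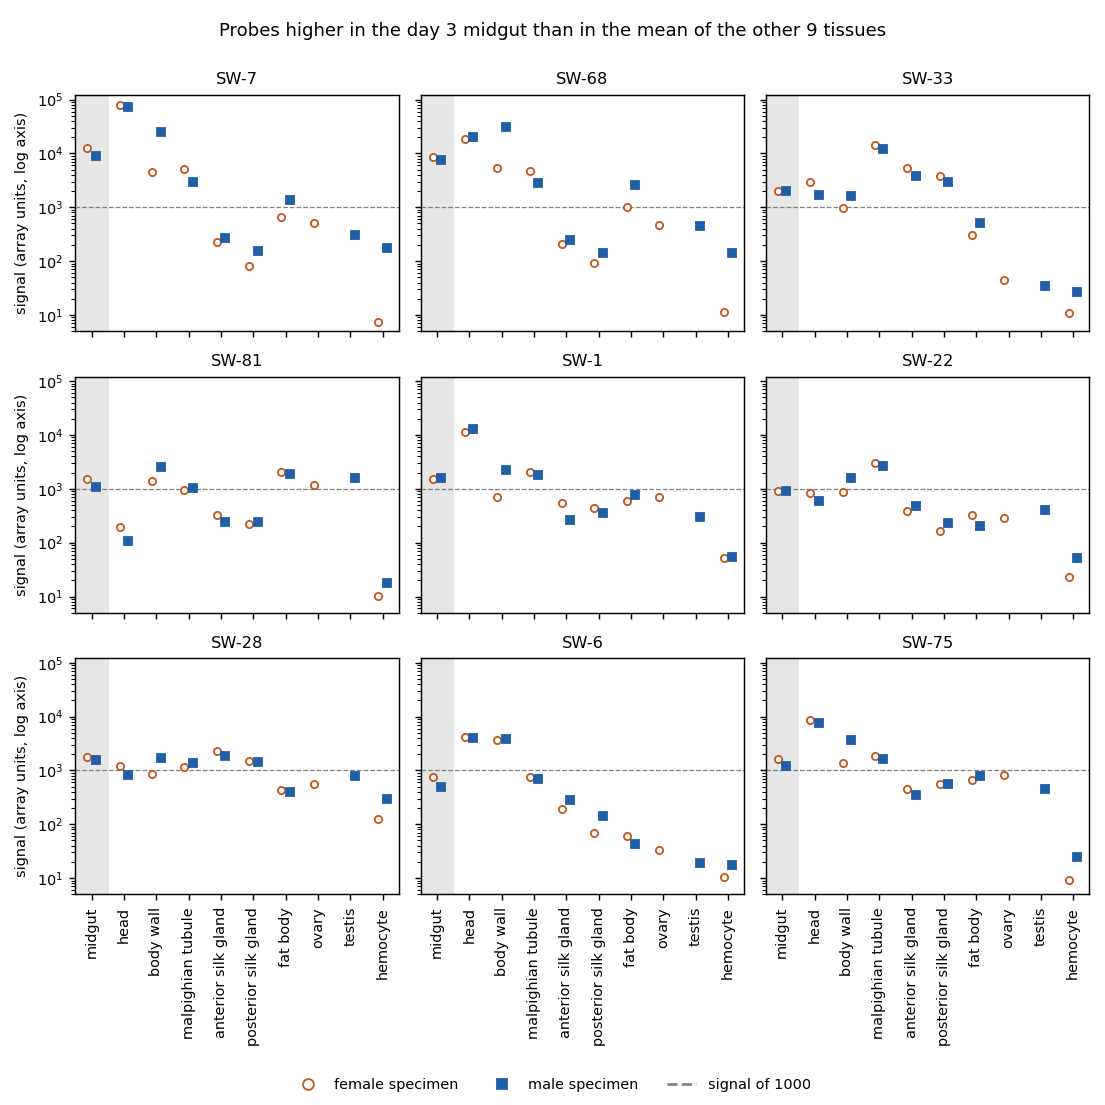
Signal (array units, log axis) of the 9 probes higher in the midgut, in each of 18 specimens of 10 tissues, with the midgut shaded at the left, open circles for females, squares for males and a dashed line at 1000. Each midgut pair lies close together, and for SW-7 and SW-68 only the head pair and the male body wall lie above it.

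Among the 21 lower probes, SW-18 fell furthest. Its midgut signals were 228.0 and 75.3 in the female and 148.7 and 257.3 in the male. In the other specimens it ran between 102.8, in the female posterior silk gland, and 10468.5, in the testis, with a median of 2669.0. Of these 16, 14 lay above both midgut specimens, and the low ones were in the silk glands, where SW-18 gave 102.8 to 292.5. The difference was -3.59 ± 0.40 (adjusted p = 2.31e-06). SW-20 had the same low pair of tissues: 220.7, 211.3, 186.3 and 221.3 in the midgut, 117.0 to 310.7 in the silk glands and up to 4690.0, in the male hemocytes, elsewhere. The testis, at 240.2, was also near the midgut level of SW-20, and the difference was -2.18 ± 0.26 (adjusted p = 2.59e-06).

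SW-45 and SW-38 were expressed in the midgut, yet lay below nearly all other tissues. SW-45 gave 2369.0 and 1762.7 in the female and 1666.0 and 2389.7 in the male midgut. All 16 other specimens lay above both midgut means, with a lowest of 2436.5 in the female hemocytes, a median of 10707.4 and a highest of 33558.2 in the female fat body (difference -2.24 ± 0.44, adjusted p = 0.000827). SW-38 averaged 1359.8 in the female and 1603.3 in the male midgut, against a median of 5454.6 and a highest of 15057.0, again in the female fat body, and 15 of the 16 specimens lay above it (difference -1.77 ± 0.37, adjusted p = 0.00104). Thus for both probes the fat body was the upper end and the hemocytes were the nearest tissue to the midgut.

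The other 17 lower probes differed by -0.71 to -1.28. They include SW-58, SW-57, SW-46 and SW-25, expressed in all 10 tissues. SW-58 averaged 3118.7 and 3476.2 in the midgut and was higher in all 16 other specimens, from 3742.5 upwards, with a difference of -1.04 ± 0.34 (adjusted p = 0.0163). SW-57 had 15 of the 16 above it (difference -1.13 ± 0.35, adjusted p = 0.0136), and SW-46 had 13 (difference -1.28 ± 0.32, adjusted p = 0.0036). SW-74 (difference -1.24 ± 0.30, adjusted p = 0.00341), SW-63 (-1.23 ± 0.25, adjusted p = 0.000827), SW-56 (-1.21 ± 0.29, adjusted p = 0.00339) and SW-44 (-1.13 ± 0.29, adjusted p = 0.00414) were all under 1000 in the midgut. For SW-56 and SW-44 the 4 midgut signals, 71.7 to 308.3 and 105.7 to 162.7, lay close to the floor of 100. In all, 9 of the 21 lower probes and 7 of the 9 higher ones were at 1000 or more in the midgut. The rest entered the test only through their signals in other tissues.

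Each midgut sex counts for much in these calls. Without the female midgut 2 higher and 5 lower probes passed, and without the male midgut 6 and 13, with the lone midgut specimen assumed to vary like the other tissues. SW-7, SW-68, SW-18, SW-45, SW-20, SW-38 and SW-63 kept their calls under all 12 other processing settings tried and without any 1 of the 18 specimens. Their differences ranged from 3.11 to 3.58 for SW-7 and from -3.77 to -3.30 for SW-18 when specimens were left out. Without body wall and malpighian tubule, the tissues with the high blank controls and array medians, 19 probes were higher and 16 lower, and all 9 higher probes were among the 19.

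**Figure D3:**
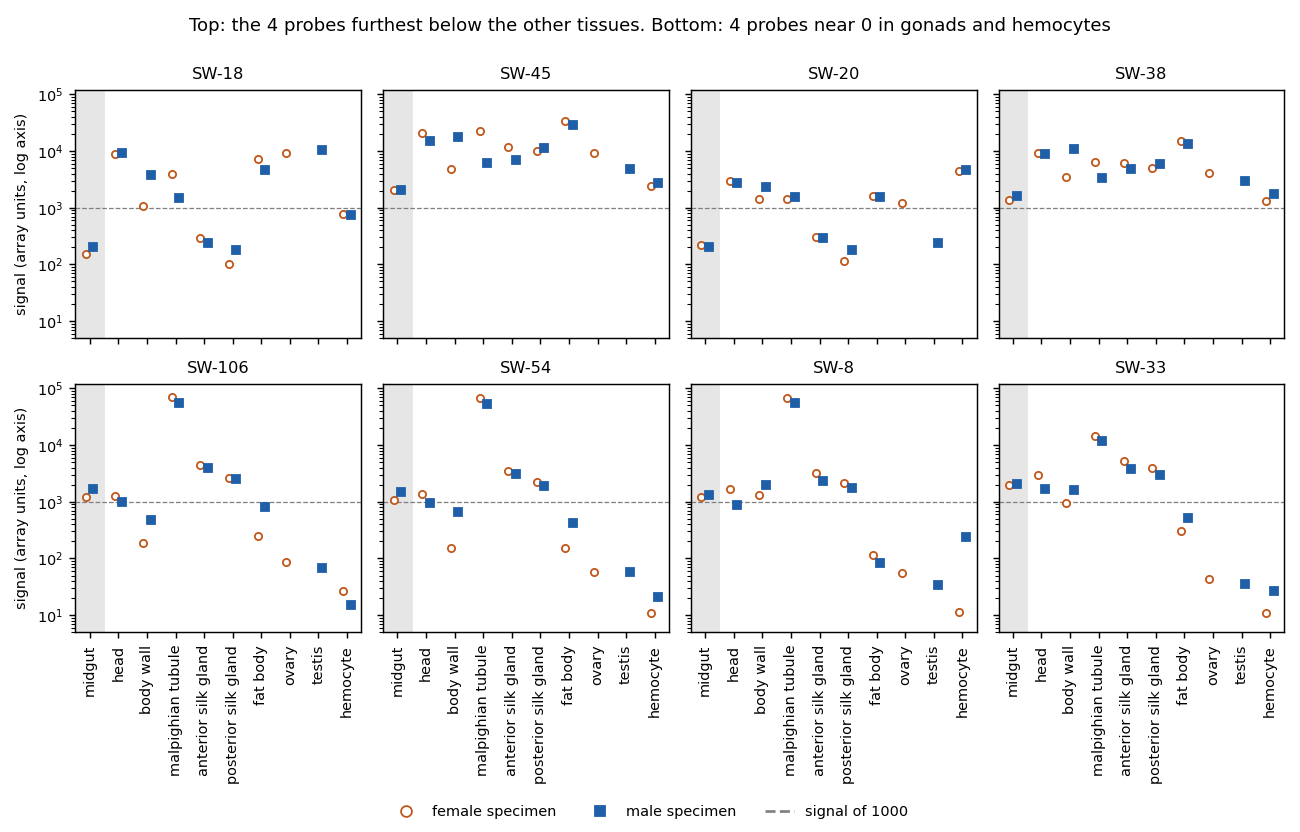
Signal (array units, log axis) of 8 probes in each of 18 specimens of 10 tissues, midgut shaded at the left, open circles for females, squares for males, dashed line at 1000. SW-18 and SW-20 are low in the midgut and the silk glands, SW-45 and SW-38 are lowest in the midgut and hemocytes, and SW-106, SW-54, SW-8 and SW-33 are at 1000 or more in both midgut specimens and under it in fat body, gonads and hemocytes.

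The midgut was then compared with each of the 9 tissues, with p-values adjusted over all 495 tests, of which 254 passed. The head, the body wall and the malpighian tubule stood mostly above the midgut. One of the blank control probes read 1888.7 to 2711.7 on the body wall arrays and 173.0 to 2159.7 on the tubule arrays. Some calls against these tissues therefore rest on signals that may be background. SW-32, called lower against both, gave 1070.0 to 1610.3 there. Against the tubule 1 probe was higher and 44 were lower in the midgut (81.8% of the 55), against the head 1 and 38 (70.9%), and against the body wall 3 and 30 (60.0%). The scaling multiplied the head arrays by 2.195 to 3.166 and the midgut arrays by 1.087 to 1.271, which moves all probes of an array together. Its part in the head calls was not tested. Most calls ran the other way against hemocyte (24 higher, 5 lower, 52.7%), fat body (21 and 8, 52.7%), testis (15 and 5, 36.4%) and posterior silk gland (14 and 3, 30.9%). The split was nearly even against ovary (13 and 10, 41.8%) and anterior silk gland (9 and 10, 34.5%). Only 1 of the 55 probes, SW-61, passed against no tissue. Its midgut signals were 2236.3 to 2862.7 and its signals elsewhere 1168.8 to 4725.5.

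**Figure D4:**
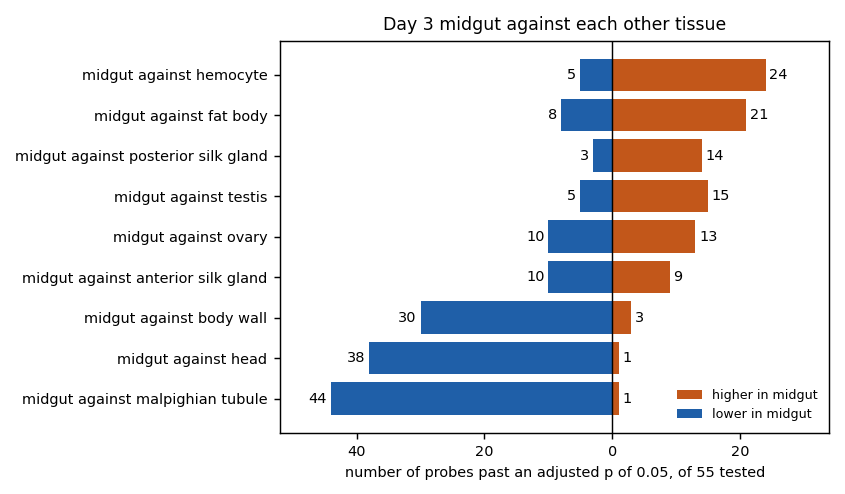
Number of probes, of 55 tested with limma, that were higher (right of 0) or lower (left of 0) in the midgut than in each other day 3 tissue (vertical axis). The malpighian tubule, with 44 lower and 1 higher, and the hemocytes, with 5 lower and 24 higher, are the ends of the range. Body wall and tubule arrays had high blank controls, and head arrays had the largest scaling factors. Hemocyte arrays had median signals under the floor.

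No probe was higher in the midgut than in every one of the 9 tissues, and none was lower than in every one (0 of 55 each with limma, and 0 at an unadjusted p under 0.05). The largest number of tissues a probe exceeded was 7, for SW-7, chosen here after its values were seen. Its midgut level was 86.53-fold that of the posterior silk gland (adjusted p = 1.34e-07), 47.97-fold that of the anterior silk gland (adjusted p = 5.67e-07) and 80.98-fold that of the hemocytes (adjusted p = 1.56e-07), on the floored scale. It was 2.80-fold that of the malpighian tubule (adjusted p = 0.0474). The body wall did not separate from the midgut for SW-7, with a log2 difference of 0.04 ± 0.60 (adjusted p = 0.957), and its female and male specimens were themselves far apart, at 4445.3 and 24640.2. In the head SW-7 was higher than in the midgut by 7.10-fold (adjusted p = 0.000632). SW-18, SW-45 and SW-38 were lower in the midgut than in 7 tissues each. The log2 difference of SW-18 was -5.93 ± 0.65 against the testis (adjusted p = 6.14e-07) and -5.10 ± 0.53 against the fat body (adjusted p = 3.38e-07). With 1 of its 4 midgut arrays under the floor and the others near it, these sizes are not exact. Its silk gland levels did not separate from the midgut (log2 differences of -0.59 ± 0.53 for the anterior and 0.32 ± 0.53 for the posterior gland).

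SW-106, SW-54, SW-8 and SW-33, of the 8 midgut probes under 1000 in hemocyte, fat body and gonads, were strongest in the tubule. In the head they lay near the midgut level, between 884.2, for SW-8 in the male, and 2911.5, for SW-33 in the female. SW-106 averaged 1190.7 and 1662.5 in the midgut, 2526.5 to 4509.2 in the silk glands and 69960.7 and 56370.5 in the tubule, and 15.0 to 85.3 in hemocytes and gonads. It was at least 13.99-fold higher in the midgut than in hemocytes (adjusted p = 3.37e-06), ovary or testis (adjusted p = 2.84e-05 each), where it lay under the floor. SW-54 averaged 1084.8 and 1504.3 in the midgut and 10.7 to 58.3 in hemocytes and gonads, at least 12.65-fold lower there (adjusted p = 1.69e-05 for hemocytes). SW-8 averaged 1227.2 and 1333.2 in the midgut, and it was at least 12.74-fold higher there than in either gonad (adjusted p = 7.14e-06 each). The 8 probes were picked for being at 1000 or more in the midgut and under it in hemocyte, fat body and gonads. That both midgut specimens lay above every hemocyte and gonad specimen in all 3 cases follows from this choice. The p-values against these tissues are therefore no separate evidence for that order.

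Part of the tubule spots was saturated: 12 of 12 for SW-106, 8 for SW-54 and 4 for SW-8. The midgut was therefore at least 44.85-fold lower than the tubule for SW-106 (adjusted p = 9.49e-08), 47.10-fold for SW-54 (adjusted p = 2.07e-07) and 47.46-fold for SW-8 (adjusted p = 2.96e-08). Against the mean of the 9 tissues these probes missed the threshold, with differences of 0.85 ± 0.37 for SW-106 (adjusted p = 0.0567), 0.87 ± 0.41 for SW-54 (adjusted p = 0.0779) and 0.71 ± 0.31 for SW-8 (adjusted p = 0.0585). SW-33, with 1983.3 and 2027.5 in the midgut and 14439.5 and 11919.7 in the tubule, had no saturated spot there and passed it (1.24 ± 0.30, adjusted p = 0.00341).

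Over the 55 probes, the mean log2 profile of the midgut was closest to that of the head, with a Pearson correlation of 0.709 across probes. The tubule (0.632), the fat body (0.628) and the posterior silk gland (0.580) followed, and the hemocytes were furthest (0.408). The probes are not independent and share the brightness of each probe, which every tissue has in common, so these values are a description. The order by correlation was not the order by number of calls. The posterior silk gland differed in the fewest probes (17) with a median absolute log2 difference of 0.55, whereas the head differed in 39 with a median of 2.03, nearly all of them lower in the midgut. The head arrays also carried the larger scaling factors given above, whose part in this was not tested.

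The sexes were close in the midgut. Over the 55 probes the median absolute difference between male and female was 0.18 on the log2 scale, against 0.09 in hemocytes, 0.23 in fat body and 1.01 in body wall. A probe under the floor on all arrays of a tissue has a difference of 0 there, which can lower the median. SW-5 is such a probe, at 17.7 and 15.8 in hemocytes and 21.0 and 14.8 in fat body. The hemocyte and fat body medians therefore cannot be ranked against that of the midgut. Of the 29 expressed probes, 14 were higher in the male, and the differences ran from -0.47 for SW-7 to 0.49 for SW-55. SW-55 averaged 1676.7 in the male and 1187.8 in the female, and SW-7 averaged 9109.8 and 12685.8. None of the 29 was 1.5-fold or more apart between the sexes on both slides. Slide a read higher than slide b for most of them in the female, and lower in the male. A gap of one direction on both slides was therefore hard to reach, and this count is weak evidence that the sexes are close. No sex difference in the midgut departed from the mean sex difference of the other 7 tissues with both sexes (0 of 55 with limma, 0 at an unadjusted p under 0.05, lowest adjusted p = 0.978). With 1 specimen per sex the median SE of that departure was 0.68, so that departures of about 1 on the log2 scale could be missed. That of SW-7 was -1.12 ± 0.86 and did not pass.

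Slides a and b of the midgut gave the technical difference between arrays of 1 specimen. The higher slide exceeded the lower one by a median of 1.20-fold in the female and 1.29-fold in the male over the 29 expressed probes. In the male slide b was the higher for all 29, and in the female slide a was for most, so part of the gap is shared by a whole array. Tested probes under 1000 could lie further apart, as did SW-18 with 228.0 and 75.3 in the female. SW-27 (5383.3 and 3425.7, 1.57-fold), SW-21 (2962.3 and 1915.7) and SW-35 (1606.3 and 1033.3), all in the female, were 1.5-fold or more apart, and no expressed probe was in the male.

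The series also holds the midgut at later stages, which allowed the contrast to be set beside that of other RNA. The midgut of fifth-instar day 7 larvae, spinning larvae at 0 hours and prepupae at 0 hours, 1 mixed-sex specimen each, was compared with the mean of body wall, silk gland and fat body of the same stages (9 specimens), with stage as a block. The blank control probe that was high in the larval body wall read 99 to 4123.3 on these arrays, with a median of 1885.2. Signals within that range may hold background. The arrays were scaled by another method than the larval ones, so only differences within the set are used. Their values stood higher in the midgut in general: the median difference over the 83 probes tested was 0.52, which centring each array on its median brought to 0. With limma 11 probes (13.3%) were higher and 3 (3.61%) were lower in the midgut. Centred arrays gave 8 and 5, and signals before scaling 9 and 1.

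Of the 9 probes higher in the day 3 midgut, all had a positive difference in metamorphosis, as had 46 of all 55 probes tested at both ages. Their median was 1.76, and 6 of the 9 were called higher, against 11 of all 55. Those 6 were SW-68, SW-7, SW-33, SW-28, SW-22 and SW-1. The day 3 calls were made against 9 tissues and these against 3. Against body wall, silk gland and fat body alone, SW-33 (0.68, adjusted p = 0.0803, limma) and SW-28 (0.80, adjusted p = 0.0605) did not pass on day 3, and the other 4 did. Of these 6, 4 were still called on centred arrays, where SW-7 (adjusted p = 0.0505) and SW-28 (adjusted p = 0.194) were not. With the date code as a block 4 remained, without SW-1 (adjusted p = 0.0767) and SW-28 (adjusted p = 0.331). SW-7 gave 29533.8, 40680.3 and 56388.7 in the midgut of the 3 stages, against a median of 4651.2 and a range of 1042.8 to 60596.7 in the other tissues. Its difference was 2.55 ± 0.44 (adjusted p = 2.92e-07), and within each of the date codes that midgut shares with other tissues it was 3.62 and 1.90. SW-68 gave 35324.2, 28184.7 and 39277.0 in the midgut, against a median of 4087.8 (difference 2.78 ± 0.46, adjusted p = 7.8e-08). In both cases only body wall specimens reached the midgut level. All 6 spots of SW-7 were saturated in the body wall of spinning larvae and of prepupae, and 2 of 6 in the midgut of spinning larvae, so the size of its difference cannot be read closely. SW-28 was less stable, since on slide a alone its difference was 0.76 (adjusted p = 0.405) and on slide b alone 2.84 (adjusted p = 0.000221).

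The 5 other higher probes of metamorphosis had not passed on day 3, except SW-44, which had been lower. SW-106 had the largest difference, with midgut signals of 12799.0, 20467.7 and 9296.0 against a median of 1680.7 in the other tissues (3.56 ± 0.46, adjusted p = 2.5e-12). SW-54 (2.87 ± 0.47, adjusted p = 5.76e-08), SW-8 (2.35 ± 0.48, adjusted p = 1.48e-05) and SW-72 (2.35 ± 0.47, adjusted p = 1.38e-05) followed. With limma on centred arrays the adjusted p was 0.00394 for SW-106, 0.0107 for SW-54, 0.00152 for SW-8 and 0.0219 for SW-72. With the date code as a block it was 0.000285, 0.00719, 0.0016 and 0.0072, in the same order. The malpighian tubule, where SW-106, SW-8 and SW-54 were strongest in larvae, is not among the tissues of this set. Against body wall, silk gland and fat body alone, the day 3 differences of SW-106 and SW-8 were 0.88 (adjusted p = 0.0646) and 0.76 (adjusted p = 0.0638), that of SW-54 was 1.10 (adjusted p = 0.0454) and that of SW-72 was 1.83 (adjusted p = 0.000576).

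The lower probes gave fewer calls. Of the 21 that were lower on day 3, 6 had a negative difference in metamorphosis, against 9 of all 55 probes, 2 were called lower and 1 was called higher, and the median difference of the 21 was 0.11. The pair called lower was SW-45 and SW-18. SW-45 gave 15029.3, 12082.7 and 5301.3 in the midgut, under all 9 other specimens, which began at 18583.7 (difference -1.70 ± 0.38, adjusted p = 0.000114). SW-18 gave 1739.7, 2130.2 and 2942.7 in the midgut, against a median of 5401.7 (difference -1.41 ± 0.48, adjusted p = 0.023). On signals before scaling neither call was made (SW-45 -1.43, adjusted p = 0.194, and SW-18 -1.15, adjusted p = 0.357), nor was that of SW-18 on slide a alone (adjusted p = 0.0861). SW-20, among the most lowered probes on day 3, gave 2914.0, 3086.5 and 3222.7 in the midgut against a median of 2964.3, a difference of 0.03 ± 0.47. SW-38 gave -1.05 ± 0.42 (adjusted p = 0.0678). The third lower probe, SW-11, was at 60.5 to 138.8 in the midgut and at 132.3 to 22130.8 in the other tissues (difference -3.24 ± 0.66, adjusted p = 1.5e-05). On day 3 its slides disagreed in the midgut, with 190.7 and 56.0 in the female, and it did not pass (-1.11 ± 0.60, adjusted p = 0.112).

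**Figure D5:**
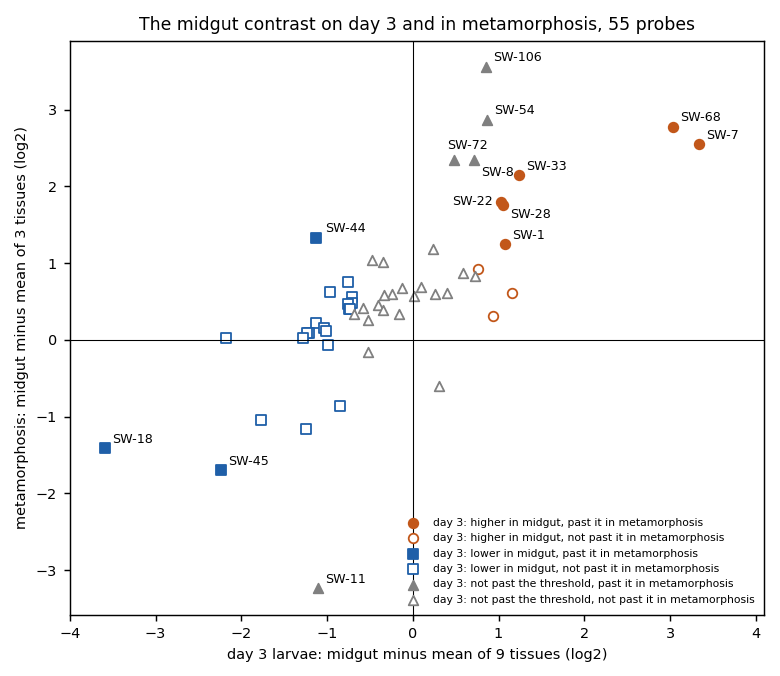
Midgut contrast of 55 probes on day 3 (horizontal axis, midgut minus the mean of 9 tissues, log2) and in metamorphosis (vertical axis, midgut minus the mean of 3 tissues, log2). Circles, squares and triangles are probes higher, lower and not called on day 3, filled where they passed an adjusted p of 0.05 in metamorphosis, and all 9 circles and 15 of the 21 squares lie above 0, as do 46 of the 55 probes.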

How the data were processed

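Small RNA was labelled with Cy3 and hybridized to a one-colour oligonucleotide array with 3 spots per probe. The authors extracted spot intensities with LuxScan, subtracted local background, set signals of 0 or less to 10, replaced flawed spots and multiplied each array by 1 factor, based on U6 and 5S rRNA in larvae and on a global median in metamorphosis. The deposited intensity values, the mean of the 3 spots on a linear scale, were used, and they matched the spot files (largest difference 0). The deposited percent of pixels above background was read as a check only. Files of log2 values and intermediate filters were not used, and no column of values was left unmapped.

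Signals under 100 were set to 100, taken to log2 and averaged over slides a and b, so that 1 specimen is 1 replicate. Probes at 1000 or more in at least 2 larval specimens (3 in metamorphosis) were tested with limma 3.58.1 in R 4.3.3 (lmFit, eBayes with a variance trend), with Benjamini-Hochberg adjustment (over all 495 tests of the 9 tissue pairs together, and within each other comparison) and a threshold of 0.05. The larval model had 10 tissue means. The single ovary and testis specimens are assumed to vary like the others. The metamorphosis model had tissue and stage, with 6 residual degrees of freedom, and limma used 1 common variance trend for all its probes. The study's methods name SAM, and limma took its place. Both fits were also run on simulated data, with outcomes that are not given here. Tables and figures were made with Python 3.11.15, pandas 2.3.3 and matplotlib 3.10.9.

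Named probes are those past the threshold in the main contrast (values for up to 10 per direction), those apart from all 9 tissues, the 10 with the highest midgut mean, those 1.5-fold or more apart between slides, and SW-7. Others named were chosen after their values were seen. The tissue comparison, the probes and the tests were chosen with earlier results of these data known. Marker lists could not be applied to unnamed probes. 2 specimens of the midgut, and no molecule counts, limit the precision.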

Additional observations from a re-analysis of the deposited data

Results flagged for a closer look

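SW-44 was called in opposite directions at the 2 ages against the same 3 tissues, body wall, silk gland and fat body. Its midgut difference was -0.94 ± 0.31 on day 3 (log2, SE; limma, adjusted p = 0.0225) and 1.33 ± 0.46 in metamorphosis (adjusted p = 0.023). The difference between the ages was not tested, since their arrays were scaled separately. In the day 3 midgut SW-44 gave 105.7 to 162.7, near the floor of 100, and in metamorphosis 2452.0, 3812.8 and 2128.3. A blank control probe read 3686.0 and 3810.7 on the day 7 midgut slides, above SW-44, whose signal there may be background. In the midgut of spinning larvae that blank read 2860.3 and 2344.3, and in prepupae 398.7 and 207.0. With each array centred on its median the signs were the same and neither call was made (-0.52, adjusted p = 0.174, and 0.81, adjusted p = 0.148). The metamorphosis call was also lost with the date code as a block (1.07, adjusted p = 0.185), with slide a only (1.22, adjusted p = 0.0902) and on signals before scaling (1.59, adjusted p = 0.18).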

How the results depend on the processing

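The calls on the largest differences held, and most of the others were lost in some setting or without 1 specimen. These include calls well under the threshold, such as SW-33 and SW-22. Of the 30 called probes, 7 kept their call under all 12 other settings and without any 1 specimen. A floor of 1000 left 3 higher probes and 129 pairs of probe and tissue, and turned SW-6 (-0.44, then called lower), SW-22 (-0.14), SW-33 (-0.02) and SW-75 (-0.06). Without body wall and malpighian tubule 19 probes were higher and SW-32 turned to 0.04. Centred arrays gave 15 higher probes on day 3 and 5 lower in metamorphosis. Signals before scaling gave 1 lower in metamorphosis, and the date code as a block gave 5. Against body wall, silk gland and fat body only, an alternative chosen after seeing the data, 6 were higher and 19 lower, and SW-26 (0.08) and SW-35 (0.01) turned. The cause of these changes was not tested. Leaving out 1 specimen gave 2 to 14 higher and 5 to 26 lower probes on day 3, the lowest counts without the female midgut and the highest without the male or the female body wall. In metamorphosis it gave 7 to 14 higher, the lowest without the day 7 midgut, and 2 to 5 lower, the highest without the day 7 body wall. A threshold of 2000 left 14 probes expressed in the midgut, and slides a and b alone gave 30 each. With the replicate block (sex), 9 probes were higher and 21 lower, and 255 pairs passed, so pairing by sex changed no count by 1.5 times. The number of probes whose midgut sex difference departed from the other tissues stayed at 0 in each setting run, as did the numbers above or below all 9 tissues.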
